A study of Mus musculus with 24 samples.

Results

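The transcripts of 10 genes that mark mesothelium, the cell layer over the abdominal organs and fat pads, were followed in retroperitoneal white adipose tissue. The genes were Msln, Upk3b, Upk1b, Lrrn4, Krt8, Krt18, Krt19, Wt1, Gpm6a and Bnc1, each taken by its symbol from all 8 deposited comparison tables, and they made up 10 of 56895 entries. RNA-seq of polyadenylated transcripts was available for 24 C57BL/6J mice, 3 in each of 8 groups. The mothers had received an AIN-93G diet whose vitamin D3 content was 1.0 IU/g (CTRL) or 0.0 IU/g (VDD). They received it for 8 weeks before mating and through gestation, and after birth they all received the control diet. The male and female offspring were placed at 6 weeks of age on a low fat AIN-93M diet (LF) or on a diet with 45% of its energy from fat (HF), each for 8 weeks. All groups thus shared the strain, the lactation diet and the length of the offspring diet, and no source used here gives the litters. The comparisons asked how maternal vitamin D deficiency and the HF diet affected the tissue of each sex. Mice are named below by group and by the mouse number in the file headers. Because the 10 genes were chosen by their log2 levels in these tables, with results of these libraries known, their values are a description. The numbers of them that passed limma's thresholds stand beside the same share of all genes and support nothing.

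Mesothelial cells form a thin, flat epithelium of mesodermal origin that covers visceral fat depots and the peritoneal wall. They carry epithelial keratins and surface glycoproteins together with transcription factors that they share with the embryonic body cavity lining, and they secrete lubricating proteins. Visceral fat depots are known to keep such a lining, whereas subcutaneous fat has none. Among the 10 genes, Msln encodes mesothelin, a surface glycoprotein after which the cell type is often recognised. Upk3b encodes uroplakin 3B, a membrane protein, and Upk1b encodes uroplakin 1B, a tetraspanin that is also a component of the plaques of urothelium, the lining of the bladder and ureter. Lrrn4 and Gpm6a encode membrane proteins, the first with leucine-rich repeats and the second of the proteolipid family and best known from neurons. Wt1 and Bnc1 encode zinc finger transcription factors. Krt8 and Krt18 encode the keratins that pair in filaments of simple epithelia, and Krt19 encodes a further keratin of the same epithelia.

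In the RefSeq annotation of GRCm38.p6, the assembly behind the mm10 build named in the submitters' processing notes, all 10 were protein coding. Krt8 (chromosome 15, 101996711 to 102004342) and Krt18 (chromosome 15, 102028216 to 102032026) were neighbours transcribed away from each other, with 23873 bases between their starts. The others lay apart, Msln on chromosome 17 (25748613 to 25754378), Upk3b on chromosome 5 (136038496 to 136044993), Upk1b on chromosome 16 (38773182 to 38800203) and Krt19 on chromosome 11 (100140810 to 100145926). Lrrn4 (132866686 to 132894010) and Wt1 (105126529 to 105173614) were both on chromosome 2, Gpm6a was on chromosome 8 (54779434 to 55060878) and Bnc1 on chromosome 7 (81966657 to 81992299). RefSeq promoter sequences were at hand for 6 of the 10 genes: Upk3b, Lrrn4, Gpm6a, Bnc1, Krt8 and Krt18. Those of Upk3b and Lrrn4 are shown for the genes that rose and fell with Msln across the libraries, and those of Krt8 and Krt18 for the adjacent keratin pair that followed another pattern in females. Each is the 250 bases before a start of transcription, 5′ to 3′ on the strand of the gene, in GRCm38.p6, and capitals mark a match to a searched motif. The window of Lrrn4 lies inside the bounds given above for that gene, so its start is not the outermost one.
Upk3b, chr5:136038246-136038495, plus strand: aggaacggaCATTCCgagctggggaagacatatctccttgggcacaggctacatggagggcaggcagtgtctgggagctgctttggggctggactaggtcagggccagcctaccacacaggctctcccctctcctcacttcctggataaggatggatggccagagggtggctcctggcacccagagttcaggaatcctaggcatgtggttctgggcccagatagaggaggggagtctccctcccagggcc
Lrrn4, chr2:132880863-132881112, minus strand: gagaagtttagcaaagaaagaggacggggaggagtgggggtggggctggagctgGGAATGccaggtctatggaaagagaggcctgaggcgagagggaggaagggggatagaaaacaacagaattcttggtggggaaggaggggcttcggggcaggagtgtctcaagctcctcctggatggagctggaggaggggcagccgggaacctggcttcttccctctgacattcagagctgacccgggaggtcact
Krt8, chr15:102004343-102004592, minus strand: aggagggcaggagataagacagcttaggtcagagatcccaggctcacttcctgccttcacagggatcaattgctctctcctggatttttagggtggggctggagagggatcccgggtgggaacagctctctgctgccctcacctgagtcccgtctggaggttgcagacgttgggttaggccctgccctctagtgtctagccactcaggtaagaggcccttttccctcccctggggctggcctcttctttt
Krt18, chr15:102027966-102028215, plus strand: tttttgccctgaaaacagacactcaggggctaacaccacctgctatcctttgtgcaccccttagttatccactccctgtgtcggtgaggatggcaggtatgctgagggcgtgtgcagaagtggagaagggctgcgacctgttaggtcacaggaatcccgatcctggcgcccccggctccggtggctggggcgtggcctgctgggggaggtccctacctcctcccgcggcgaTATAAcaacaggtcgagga

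The letters searched, on both strands, were GGAATG (the MCAT element), GGGCGG (the GC box) and TATAA. MCAT was found in 1 window each of Upk3b, Lrrn4 and Gpm6a, and in 12.6% of all 32851 promoter windows of this length. TATAA was found in Krt18, with its first base 19 bases before the start, and in a second start site of Gpm6a, against 22.8% of all windows. The promoter of Bnc1 had a GC content of 83.6% and held 5 GC boxes, a motif found in 32.7% of all windows, and that of Krt8 held none of these letters. No motif was shared by all of the genes with a promoter sequence, and a match describes the letters only.

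The 24 libraries held 13346779 to 18484346 reads assigned to genes (median 15933506). Adipocyte genes were high throughout, with 44740.0 to 109716 normalized reads of Adipoq, the gene of the fat cell hormone adiponectin. Several libraries held transcripts of other tissues. Genes of skeletal muscle, such as Ckm, ranged from 1.28 normalized reads in VDD LF male 2078 to 165203 in VDD LF male 2310. VDD LF female 2303 had 1937 normalized reads of the kidney gene Umod, against at most 4.47 elsewhere. Cyp11a1, the first enzyme of steroid hormone synthesis, exceeded 1000 normalized reads in CTRL HF females 2290 and 2292 and in VDD HF female 2121 only. In 6 library names the word renal appears, and no source used here explains it. Normalized reads are reads divided by a size factor computed over all 24 libraries. In whole tissue, fewer cells of a type and less RNA per cell cannot be told apart.

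All 10 genes were detected in every library, over a wide range. Upk3b was the most abundant per length, with a median of 391 normalized reads per kb of exon, followed by Upk1b (232), Krt19 (218), Msln (197) and Gpm6a (178). Krt8 (125), Lrrn4 (88.4), Krt18 (87.1), Wt1 (53.3) and Bnc1 (31.5) were lower on the same scale. Summed over the 10 genes, the share of all normalized reads went from 0.00198% in VDD LF male 2078 to 0.128% in CTRL HF female 2292. The spread within a group was often larger than the spread between groups. In VDD LF males, the highest library exceeded the lowest 103-fold for Msln, 78.3-fold for Upk3b, 109-fold for Krt8 and 14.6-fold for Wt1, the least spread of the 10 in that group. In CTRL LF females the same ratio was 1.32 for Msln, 1.14 for Upk3b and 4.02 for Krt8.

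**Figure D1:**
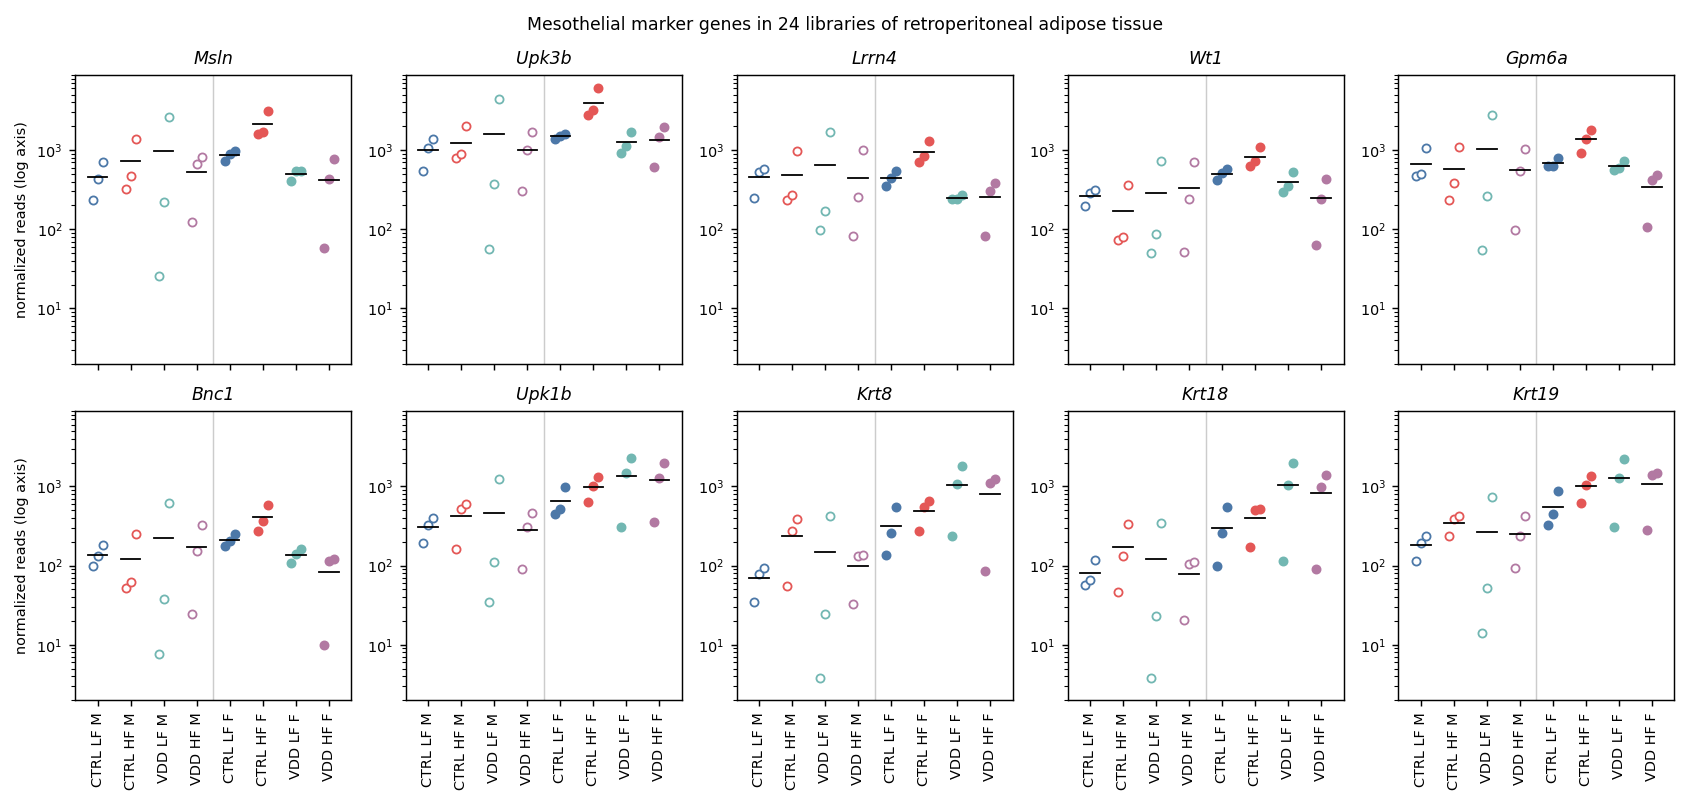
Normalized reads (log axis) of the 10 genes in each of the 24 libraries, by group of 3 mice. Open points are males, filled points are females, and bars are group means. The points of VDD LF males spread over a wider ratio than those of any other group for all 10 genes, and CTRL HF females have the highest mean for Msln, Upk3b, Lrrn4, Wt1, Gpm6a and Bnc1.

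Msln in CTRL LF males had 235, 428 and 712 normalized reads, and in CTRL HF males 318, 475 and 1388. In VDD LF males it had 25.6, 218 and 2642, and in VDD HF males 123, 664 and 819. The ranges of the 4 male groups overlapped, and VDD LF males held both the lowest and the highest male library. In females Msln had 728, 901 and 965 normalized reads in CTRL LF, 1614, 1697 and 3089 in CTRL HF, 408, 537 and 544 in VDD LF, and 57.9, 425 and 763 in VDD HF. The 3 CTRL HF females lay above all other females, and VDD HF female 2083 lay far below them.

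Upk3b was also highest in CTRL HF females, with 1390.5, 1501 and 1579 normalized reads in CTRL LF, 2771, 3172 and 6024 in CTRL HF, 920, 1140.0 and 1696 in VDD LF and 605, 1463 and 1930.1 in VDD HF. Wt1 had 422, 516 and 573 in CTRL LF females, 638, 721 and 1087 in CTRL HF females, 296, 348 and 531 in VDD LF females and 62.8, 242 and 435 in VDD HF females. For both genes every CTRL HF female exceeded every other female. Lrrn4, Gpm6a and Bnc1 shared this, with means in CTRL HF females of 955 ± 320.1, 1367 ± 427 and 407 ± 155 normalized reads (SD, n = 3). Their means in VDD HF females were 254 ± 154, 338 ± 203 and 81.9 ± 62.5 (SD, n = 3).

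Krt18 differed from these genes. It had 100.04, 254 and 548 normalized reads in CTRL LF females, 172, 497 and 525 in CTRL HF females, 115, 1035 and 1983 in VDD LF females, and 91.2, 982 and 1378 in VDD HF females. The ranges of the 4 female groups overlapped, and the highest values were in VDD mothers' daughters on either diet. In males Krt18 had 56.3, 65.5 and 117 in CTRL LF, 45.9, 133 and 332 in CTRL HF, 3.84, 22.8 and 340.5 in VDD LF, and 20.6, 105 and 111 in VDD HF. Krt8, Krt19 and Upk1b behaved alike, with highest values of 1821, 2231 and 2266 normalized reads, all in VDD LF female 2311, where Msln had 544.

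Ordered by group mean, CTRL HF females came first for Msln, Upk3b, Lrrn4, Wt1, Gpm6a and Bnc1, and VDD LF females came first for Upk1b, Krt8, Krt18 and Krt19. For the last 4 genes the order went on with VDD HF, CTRL HF and CTRL LF females, then the male groups. For Msln it went on with VDD LF males, CTRL LF females, CTRL HF males, VDD HF males, VDD LF females, CTRL LF males and VDD HF females. The ranges of neighbouring groups overlapped for all 7 neighbour pairs in 9 of the genes, so these neighbours did not differ beyond their spread. The exception was Wt1, for which CTRL HF females (815 ± 239, SD, n = 3) did not overlap with CTRL LF females (503 ± 76.3, SD, n = 3), and 6 of 7 pairs overlapped.

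The 10 genes fell into a set of 6 (Msln, Upk3b, Lrrn4, Wt1, Gpm6a and Bnc1) and a set of 4 (Upk1b, Krt8, Krt18 and Krt19), a division made after the values were seen. Over the 24 libraries, Pearson's r between log2 levels was 0.83 to 0.97 for the 15 pairs within the 6, and 0.97 to 0.98 for the 6 pairs within the 4. For the 24 pairs between the sets it was 0.29 to 0.78. The values differed between the sexes, a difference that was not tested. In the 12 males the pairs between sets had r of 0.63 to 0.95, whereas in the 12 females they had r of -0.29 to 0.17. Within the sets r stayed at 0.81 to 0.98 (the 6) and 0.94 to 0.98 (the 4) in females. With group means removed, r between the sets over all libraries was 0.47 to 0.78. Without the 2 libraries farthest from the median of the first gene of each pair, r between the sets was 0.15 to 0.65. Within the sets it was then 0.82 to 0.96 (the 6) and 0.95 to 0.97 (the 4). These values describe 24 libraries that share a size factor scale and, within groups, a diet, and the same members defined the sets.

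**Figure D2:**
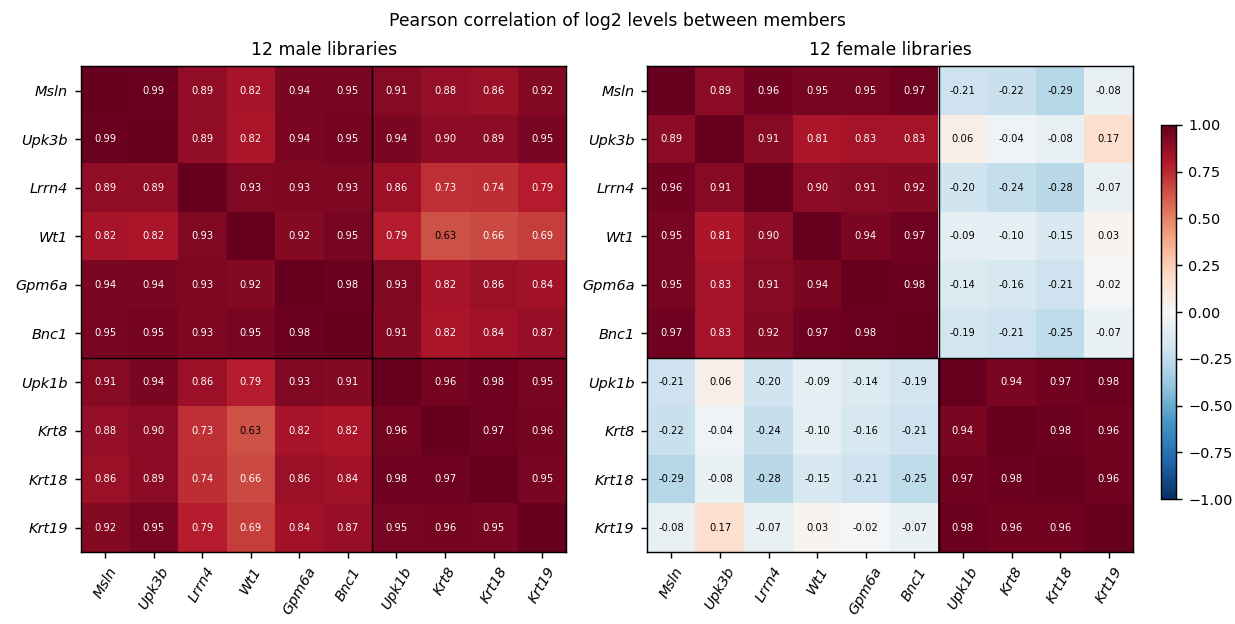
Pearson's r between the log2 levels of each pair of the 10 genes, in the 12 male libraries (left) and the 12 female libraries (right), on a colour scale from -1 to 1. Lines separate the set of 6 from the set of 4. The blocks between the sets are 0.63 to 0.95 in males and -0.29 to 0.17 in females.

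The mean log2 level of each set, relative to its mean over 24 libraries, showed where the sets parted. In VDD LF male 2310 both were high, at 2.10 for the 6 and 1.13 for the 4, and in VDD LF male 2078 both were low, at -3.33 and -4.69. VDD HF female 2083 had the lowest female level of the 6 (-2.35) together with 2.43 for the 4. VDD LF female 2311 had 0.21 for the 6 and 2.92 for the 4, the highest of all libraries. Among males, CTRL HF male 2128 stood out in the same way, at -0.84 for the 6 and 0.63 for the 4.

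**Figure D3:**
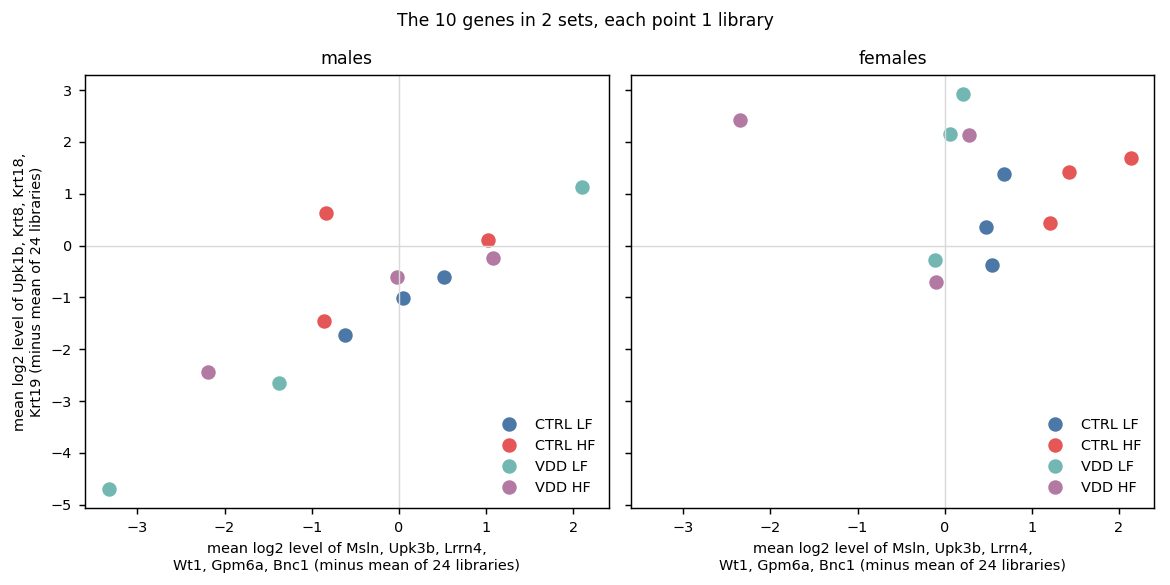
Mean log2 level of the set of 4 (vertical axis) against that of the set of 6 (horizontal axis), each minus its mean over the 24 libraries, with 1 point per library and colours for diet groups. Male points (left) run along a rising line apart from CTRL HF male 2128 (-0.84, 0.63), whereas in females (right) the VDD points with the highest level of the 4 (2.92 and 2.43) are at 0.21 and -2.35 for the 6.

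Maternal diet was compared first in males. In CTRL LF vs. VDD LF males all 10 genes had lower mean log2 levels in VDD LF, with a median log2 fold change of -0.82 (from -1.16 to -0.47) beside a median of 0.012 over all tested genes. The direction turned with the scale, since by mean normalized reads all 10 were higher in VDD LF (Msln 962 against 459, with 2642 in mouse 2310). The difference was smaller than the spread between mice. Msln had a log2 fold change of -0.73 ± 1.49 (SE) and Krt18 -1.15 ± 1.38 (SE), and no gene separated the groups, beside 6.83% of all tested genes that were higher and 6.59% that were lower without overlap. With limma, 0 of the 10 passed an adjusted p of 0.01 with a fold change over 1.5 or under 0.66, as did 0% of 15438 tested genes. None of the 10 had an unadjusted p under 0.05, and limma-voom called none of them either. Mice 2078 and 2310 set this result, since the median was 0.35 when mouse 2078 was left out and -2.47 when mouse 2310 was left out.

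In CTRL HF vs. VDD HF males, 8 of the 10 genes were lower and 2 higher in VDD HF, and the median was -0.55 (from -1.11 to 0.67) beside 0.0025 over all genes. Krt8 had a log2 fold change of -1.11 ± 0.80 and Wt1 of 0.67 ± 0.96 (SE). All 10 genes overlapped between the groups, while 5.04% of all genes were higher and 5.25% lower without overlap. No member was called, beside 0% of 16013 genes, by limma, with 0 of the 10 at an unadjusted p under 0.05 and 0 called by limma-voom. The median turned to 0.24 without VDD HF male 2298, was -0.028 without CTRL HF male 2131 and was -1.11 without VDD HF male 2308.

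Maternal diet was then compared in females, where the sets parted. In CTRL LF vs. VDD LF females the 6 genes of the first set were lower in VDD LF and the 4 of the other were higher. Lrrn4 had a log2 fold change of -0.81 ± 0.18 and Msln of -0.80 ± 0.17 (SE). Bnc1 had -0.64 ± 0.21 (SE), and these 3 genes did not overlap between the groups, while 9.74% of all tested genes were lower without overlap. Krt8, at 1.52 ± 0.79, and Krt18, at 1.36 ± 1.06 (SE), were higher on average with overlapping ranges, and 8.48% of all genes were higher without overlap. Limma called 0 of the 10 and 0% of 16046 genes. At an unadjusted p under 0.05 there were 3 of the 10 and 12.05% of all genes, and limma-voom also called 0. The median of the 10 was -0.22 beside 0.013 over all genes, and -0.082 without VDD LF female 2303.

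In CTRL HF vs. VDD HF females the 6 genes of the first set had the largest differences of any comparison. Msln was lower in VDD HF with a log2 fold change of -2.92 ± 0.88 (SE). Bnc1 had -2.85 ± 0.92, Gpm6a -2.22 ± 0.57, Lrrn4 -2.11 ± 0.57, Wt1 -2.06 ± 0.66 and Upk3b -1.64 ± 0.48 (SE). None of these 6 overlapped between the groups, and 11.8% of 16480 tested genes were lower without overlap. Upk1b (0.04 ± 0.61), Krt8 (0.10 ± 1.00), Krt18 (0.50 ± 1.01) and Krt19 (-0.17 ± 0.66) had overlapping ranges and large errors, while 11.1% of all genes were higher without overlap. The median over the 10 was -1.85, beside 0.0013 over all tested genes. Limma called 0 of the 10 and 0% of all genes, 6 of the 10 and 16.7% of all genes had an unadjusted p under 0.05, and limma-voom called 0. VDD HF female 2083 was the lowest library for each of the 6 genes, and without it Msln was at -1.82 and the median at -1.21. Summed over the 8 listed genes of stromal progenitors, such as Pdgfra and Dcn, the level was 42774 to 50483 normalized reads in CTRL HF females and 13997 to 33468 in VDD HF females, and the part of these cells in the result was not tested.

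The HF diet was compared within each maternal diet. In CTRL LF vs. CTRL HF males the 10 genes went both ways, with 6 higher and 4 lower in CTRL HF by mean log2 level (7 and 3 by mean normalized reads) and a median log2 fold change of 0.30 (from -1.02 to 1.47) beside -0.022 over all genes. Krt8 had 1.47 ± 0.65 and Krt19 0.95 ± 0.32 (SE), whereas Wt1 had -1.02 ± 0.53 (SE). All 10 overlapped between the groups, while 13% of all genes were higher and 11.7% lower without overlap. By limma 0 of the 10 and 0.0578% of 15583 genes were called. At an unadjusted p under 0.05 there were 2 of the 10 and 18.8% of all genes, and limma-voom called 0 of the 10. The direction of the median depended on single libraries, since leaving out CTRL HF male 2131 gave -0.12, CTRL LF male 2287 gave -0.037, CTRL HF male 2128 gave 0.15, and either of CTRL LF male 2293 and CTRL HF male 2127 gave 0.55. Without the libraries whose names contain the word renal, 1 of the 10 was called, Wt1 at -1.95, beside 111 genes or 0.746% of all, and the median was -0.52. That fit left out 1 of the 3 mice of each group, CTRL LF male 2287 and CTRL HF male 2131.

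Among sons of VDD mothers, 9 of the 10 genes had higher and 1 had lower mean log2 levels in VDD HF than in VDD LF mice, with a median of 0.76 (from -0.14 to 1.34) beside 0.011 over all genes. The direction again turned with the scale, since by mean normalized reads 9 of the 10 were lower in VDD HF (Msln 536 against 962) and Wt1 alone was higher. Krt19 had a log2 fold change of 1.34 ± 1.40 and Msln of 0.71 ± 1.66 (SE). Again no member separated the groups, while 17% of all genes were higher and 16.5% lower without overlap. Limma called 0 of the 10 and 0.0752% of 15965 genes, 0 of the 10 had an unadjusted p under 0.05 and limma-voom called 0. With mouse 2078 of the VDD LF group left out the median was -0.59, and with mouse 2310 left out the value was 2.43. It was 1.54, 0.46 and 0.14 without VDD HF males 2298, 2307 and 2308, respectively.

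All 10 genes were higher in CTRL HF than in CTRL LF females, with a median of 0.88 (from 0.54 to 1.31) beside 0.012 over all genes. Upk3b was highest, with a log2 fold change of 1.31 ± 0.27 (SE), followed by Msln at 1.22 ± 0.25, Lrrn4 at 1.04 ± 0.25, Gpm6a at 0.92 ± 0.23, Bnc1 at 0.87 ± 0.27 and Wt1 at 0.64 ± 0.21 (SE). These 6 did not overlap between the groups, and 16.9% of 16563 tested genes were higher without overlap. The 4 others were at 0.54 to 0.89 with overlapping ranges, and 18.2% of all genes were lower without overlap. No member was called by limma (0% of all genes), 6 of the 10 and 28.8% of all genes had an unadjusted p under 0.05 and limma-voom called 0. Both CTRL HF females with over 1000 normalized reads of Cyp11a1, mice 2290 and 2292, entered this comparison. Without them a single CTRL HF female, mouse 2291, was set against 3 CTRL LF females, and the median was 0.37. With any single library left out, all genes but Krt18 kept their sign, those of both sets, and Krt18 was at -0.096 at the lowest. The stromal progenitor genes moved alongside, with 24102 to 32105 normalized reads in CTRL LF females. Summed over 8 adipocyte genes, the level was 416078 to 496268 in CTRL LF females and 310155 to 387435 in CTRL HF females. By mean log2 level, 5 of these 8 were lower and 3 higher in CTRL HF. The part of either cell type in the result was not tested.

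In VDD LF vs. VDD HF females all 10 genes had lower mean log2 levels in VDD HF, with a median of -0.48 (from -1.33 to -0.02) beside -0.0066 over all genes. Gpm6a had a log2 fold change of -1.14 ± 0.54 (SE) and was the only member without overlap, beside 6.06% of 15923 tested genes that were lower and 5.55% that were higher without overlap. Bnc1 had -1.33 ± 0.90 and Upk3b -0.02 ± 0.44 (SE). With 1 library left out at a time, only Wt1, Gpm6a and Bnc1 kept their sign in every fit, and Bnc1 was at most -0.18. The other genes turned in at least 1 fit, with Msln up to 0.21, Lrrn4 up to 0.43 and Upk3b up to 0.47. By mean normalized reads 8 genes were lower, and Upk3b and Lrrn4 were higher in VDD HF. By limma 0 of the 10 and 0% of all genes were called, 0 of the 10 had an unadjusted p under 0.05 and limma-voom called 0. The median was -1.10 without VDD LF female 2303, -0.16 without VDD LF female 2311 and -1.01 without VDD HF female 2121.

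**Figure D4:**
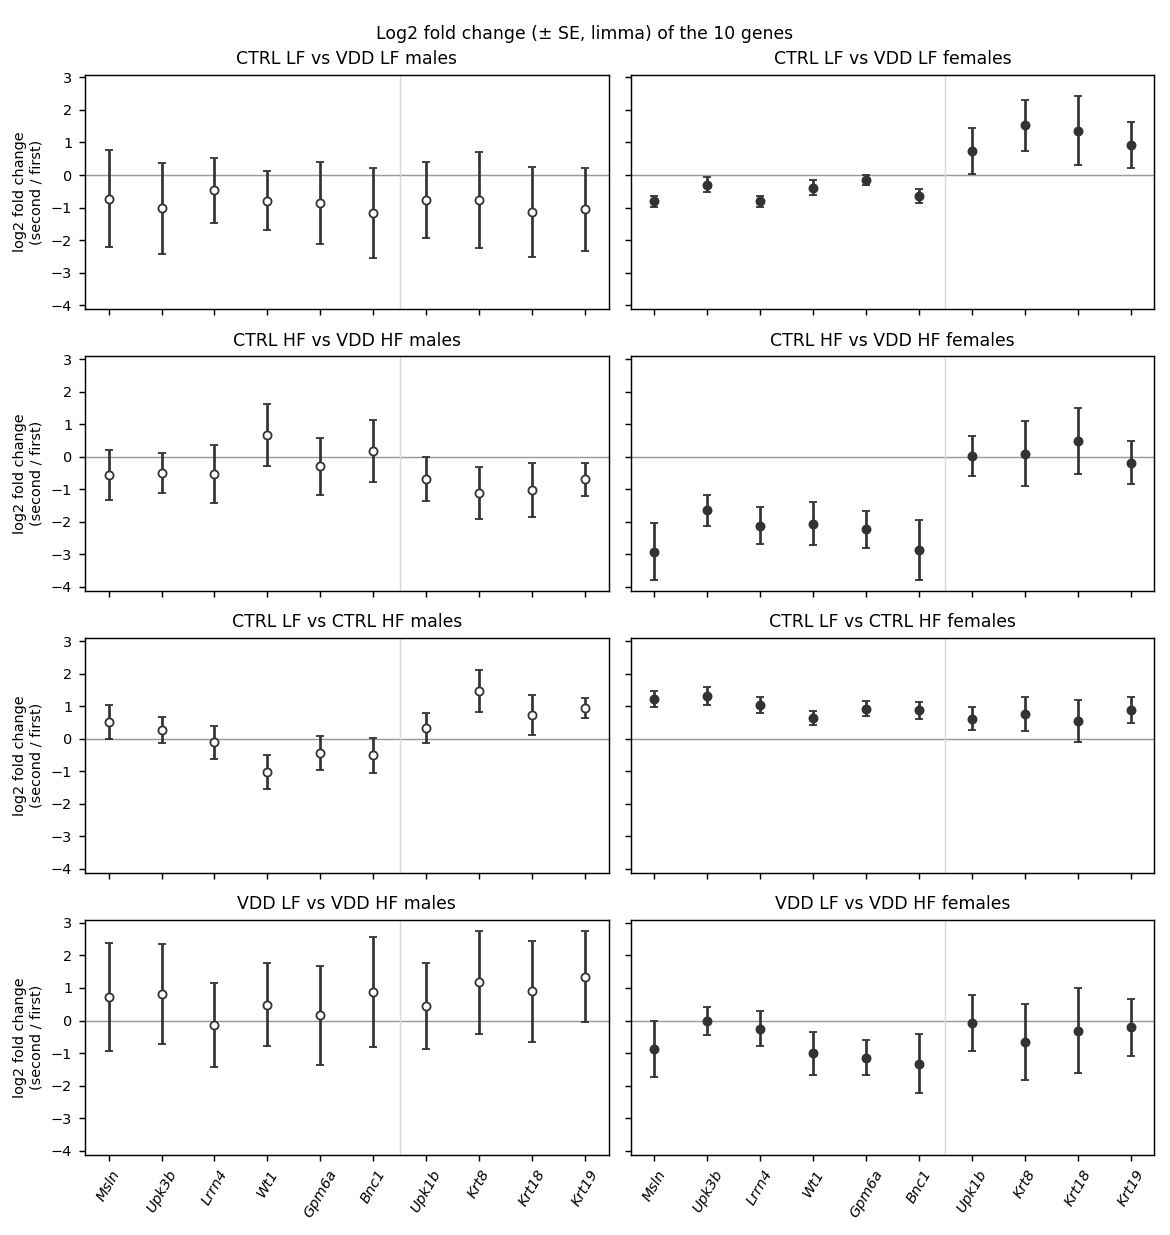
Log2 fold change (second group over first) of the 10 genes in the 8 comparisons, males left and females right, with error bars of 1 SE from limma. A line separates the set of 6 from the set of 4. In CTRL HF vs. VDD HF females the 6 lie from -2.92 to -1.64 and the 4 from -0.17 to 0.50, and error bars of Msln are widest in the comparisons with VDD LF males (1.49 and 1.66).

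The maternal diet and the HF diet were also combined in 1 model over all 24 libraries, in which the response to the HF diet in VDD offspring was set against that in CTRL offspring. In females this difference of log2 fold changes was negative for all 10 genes, with a median of -1.39 beside -0.016 over all genes. Bnc1 had -2.22 ± 1.64, Msln -2.13 ± 1.62 and Gpm6a -2.09 ± 1.41 (SE). The model estimated 1 spread per gene over all 8 groups. These errors are therefore the same in both sexes and include the wide spread among VDD LF males. In the LF and HF comparisons of females alone, Gpm6a had errors of 0.23 (CTRL) and 0.54 (VDD). In males the median was 0.29, with 8 genes above and 2 below 0, and Wt1 had the highest value at 1.49 ± 1.28 (SE). Limma called 0 of the 10 and 0% of 18399 genes in either sex, 0 of the 10 had an unadjusted p under 0.05, and limma-voom called 0. Without VDD LF male 2310 the male median was 1.92, without VDD LF male 2078 it was -0.91, and without VDD HF male 2308 it was -0.19. Each other male left out in turn gave a median between 0.029 and 1.01. The 8 comparisons and these differences share groups with each other.

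Mean log2 levels were higher in females than in males for all 10 genes, with a median log2 difference of 1.14 (from 0.15 to 2.58) beside 0.0097 over all genes. Krt8 and Krt18, the paired keratins, had differences of 2.58 ± 0.63 and 2.58 ± 0.66, and Krt19 of 2.13 ± 0.50 (SE). These 3 passed limma's thresholds, as did 7.27% of 18399 genes, and 6 of the 10 had an unadjusted p under 0.05, as did 33.0% of all genes. Upk1b had 1.76 ± 0.49, whereas Lrrn4 had 0.15 ± 0.44 (SE), and was below 0 without VDD LF male 2078 or VDD HF male 2298 (lowest -0.062). By mean normalized reads Lrrn4 was lower in females (477 against 509.7), and 9 of the 10 genes were higher. No gene separated the sexes, and 0.207% of genes were higher, and 0.103% lower, in every female than in any male. Limma-voom called 1 of the 10, Krt19, and 6.24% of all genes. With 1 library left out at a time, limma called from 0 to 5 of the 10 and 1030 to 1629 of all genes. It called 0 of the 10 without CTRL LF male 2287, CTRL HF male 2127, VDD LF male 2302 or VDD HF male 2298, or without CTRL LF female 2125, CTRL HF females 2290 and 2292, VDD LF female 2311 or VDD HF females 2083 and 2121, each left out alone.

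Transcripts of urothelium accompanied the set of 4 in some libraries, though not in all with high levels of the 4. Upk3a, the uroplakin 3A of the urothelial plaque, had 1707 and 777 normalized reads in VDD LF females 2311 and 2312, and 1358 and 970 in VDD HF females 2083 and 2121. It had 103 and 307 in CTRL LF females 2124 and 2125, 291 in CTRL HF female 2290 and 309 in CTRL HF male 2128. In the other 16 libraries it had at most 4.47, and 11 of these were at 0. In the 5 groups with such libraries, the one with most Upk3a was also the one with most Krt18, apart from CTRL HF females, where mouse 2292 had 525 of Krt18 and 0.83 of Upk3a. VDD LF male 2310 had the highest mean log2 level of the 4 among males (1.13 above the mean of the 24 libraries), with Upk3a at 0. Upk2, a further plaque protein, and Psca, a surface protein of urothelium, were at 0 in 12 libraries each and reached 684 and 998 in VDD LF female 2311. The 8 listed urothelial genes, a list made after the values were seen, summed to 37.3 to 181 normalized reads in 11 of the 12 males and 1812 in CTRL HF male 2128. In females they summed to 133 to 2286 (CTRL LF), 95.8 to 1719 (CTRL HF), 198 to 8508 (VDD LF) and 235 to 7274 (VDD HF). Without the 8 libraries above 100 normalized reads of Upk3a, a choice also made after the values were seen, limma called 0 of the 10 genes between the sexes, and 1.02% of all genes, with 0 of the 10 and 19.97% of all genes at an unadjusted p under 0.05. The median difference was then 1.02 (from 0.15 to 1.39). Of the 8 libraries left out, 7 were female. Mice 2335, 2303 and 2081 alone then stood for CTRL LF, VDD LF and VDD HF females. Whether urothelium or the smaller number of females lay behind the lost calls was not tested.

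**Figure D5:**
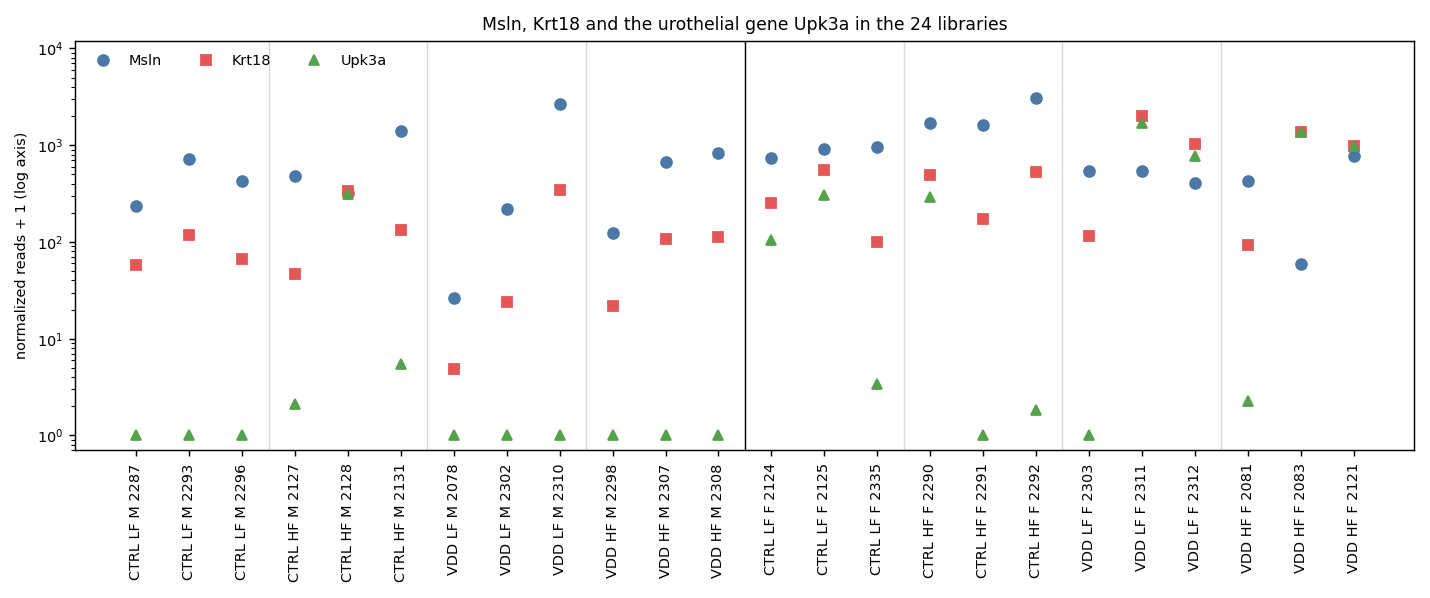
Normalized reads plus 1 (log axis) of Msln, Krt18 and the urothelial gene Upk3a in each library, ordered by group, with the line in the centre between males and females. Upk3a lies at 103 to 1707 in 8 libraries and at or below 4.47 in the other 16, and Msln in VDD HF female 2083 is at 57.9 where Upk3a is at 1358.

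Msln did not accompany Upk3a in VDD HF female 2083 or in VDD LF male 2310. Msln in VDD HF female 2083 had 57.9 normalized reads where Upk3a had 1358, and Msln in VDD LF male 2310 had 2642 where Upk3a was at 0. Rspo1, a secreted Wnt pathway activator made by mesothelium, had 70.6 and 1047 in these libraries. Muc16, the mesothelial surface mucin, had 29.4 and 1647. Both thus followed Msln.

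Of 13 further genes listed for mesothelium, 12 were tested in the comparisons, and Calb2, the calretinin gene, was at 0 in 22 libraries and reached at most 0.991 normalized reads. The 4 highest by median level were Cldn15, a claudin of tight junctions (1401 normalized reads), Slpi, a secreted protease inhibitor (773), Rspo1 (406) and Krt7, a simple epithelial keratin (264). Cldn15 kept a narrow range of 909 to 2093, whereas Slpi ranged from 56.4 in VDD LF male 2078 to 5613 in VDD LF male 2310, the same extreme libraries as for Msln in males. In CTRL HF vs. VDD HF females 10 of the 12 were lower in VDD HF, with a median of -1.85, and 10 of the 12 were higher in CTRL HF than in CTRL LF females, with a median of 0.91. Limma called none of the 12 in any of the 8 comparisons, and limma-voom called 0 genes of the whole table in 7 of them. Its 9 calls were all in the CTRL LF and CTRL HF male comparison. At an unadjusted p under 0.05 there were 7 of 12 in each of these female comparisons, beside 16.7% and 28.8% of all genes. There were 3 in the CTRL LF and CTRL HF male comparison (18.8% of all genes), 1 in that of VDD LF and VDD HF females (5.05%) and 0 in the others. The lowest adjusted p of the list, in CTRL LF vs. CTRL HF females, was 0.027 for Pdpn, podoplanin, with a log2 fold change of 1.61 ± 0.27 (SE, limma). Between the sexes Krt7 alone of the 12 was called, 2.702 ± 0.623 (SE) higher in females with an adjusted p of 0.0048 (limma), and its level followed the set of 4.

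Among 18389 other genes with sufficient reads, those with levels most like the mean of the 10 were Esyt3 (r = 0.961), Cyp2s1 (0.960), Lrrc1 (0.959), Thsd4 (0.954) and Cdh3 (0.952), by Pearson's r over the 24 libraries. Cdh3 encodes P-cadherin, an adhesion protein of epithelia, and Cyp2s1 a cytochrome P450. For the set of 6 alone the closest were Rspo1 (r = 0.981), Crb2 (0.979), Tmem151a (0.977), Myrf (0.975) and Muc16 (0.973). Crb2 encodes an apical polarity protein and Myrf a membrane-bound transcription factor. For the set of 4 they were Krt7 (r = 0.983), Evpl (0.968), Epha1 (0.957), Il17re (0.957) and Mgat3 (0.928). Evpl encodes envoplakin, a protein of the epithelial cell envelope. Of the 13 listed mesothelial genes, Rspo1 and Muc16 thus appeared beside the 6 and Krt7 beside the 4.

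Markers of other tissues were set beside these patterns. Kidney genes summed over 10 genes gave 531 to 773 normalized reads in CTRL HF females and 18.6 to 136 in VDD HF females, while Umod was at 0 in 18 of the 24 libraries. The highest sum was 8950, in VDD LF female 2303. Of these genes, Lrp2 had a median of 105 over the 24 libraries and each other gene at most 3.43. The sums outside that library thus mostly describe Lrp2. Steroid-producing cell genes summed over 6 genes gave 1128 to 33093 in CTRL HF females, 443 to 19166 in VDD HF females and at most 749 in males. Of these genes, Mc2r had 200 to 726 in every library (median 440). The median was 145 for Star and at most 28.6 for each other gene. Sums of libraries low in Cyp11a1 thus held much Mc2r, with 726 of the 1128 in CTRL HF female 2291. The part of steroid-producing cells in the results on the 10 genes was not tested. Without the libraries above 1000 reads of Cyp11a1, the comparison of CTRL HF and VDD HF females set a single CTRL HF female against 2 VDD HF females. It gave a median of -1.90. Genes of glandular epithelium, a list of 10, summed to 365 to 2901 normalized reads in VDD LF females, 29.6 to 2215 in VDD HF females, 241 to 973 in CTRL HF females, 114 to 946 in CTRL LF females and 12.8 to 745 in males. This list shares Krt5 with the 8 urothelial genes. Krt5 had 1879 in VDD LF female 2311, 1378 in VDD HF female 2083 and 482 in CTRL HF male 2128. Each of these libraries had the highest glandular sum of its group. The 8 genes listed for ovary and female tract summed to 181 to 4584 in CTRL HF females and 60.4 to 2905 in VDD HF females. They gave 435 to 1087 in VDD LF females, 200 to 401 in CTRL LF females and at most 208 in males. Skeletal muscle genes summed over 8 genes gave 246 to 1171666 normalized reads in VDD LF males and 142 to 55948 in CTRL LF females. VDD LF male 2310 was highest both for muscle genes and, among males, for all 10 genes. VDD LF male 2078 was lowest for Ckm and, among males, for 9 of the 10 genes, the exception being Lrrn4. Other males went against this order. VDD HF male 2298 had 236147 for muscle genes and -2.19 for the set of 6, and VDD HF male 2308 had 1578 and 1.07. The stromal progenitor sum was also lowest of all libraries in VDD LF male 2078 (12831) and highest in VDD LF male 2310 (55378). The part of muscle or of stromal progenitors in these levels was not tested. The milk protein gene Wap was at 0 in all 24 libraries, and Csn3 in 21.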

How the data were processed

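Retroperitoneal adipose RNA of 24 mice was sequenced after TruSeq stranded mRNA preparation. Per the study's methods and the submitters' processing notes, reads were aligned to mm10 with STAR 2.7.0d, kept where their position was unique, counted with featureCounts 1.6.1 and normalized with DESeq2. No source used here gives the strand setting of the counting, so Wt1 and its antisense gene, and Krt8 and its pseudogene, may share reads. The authors deposited 8 tables of 6 libraries, whose values are log2 of normalized counts plus 1. Their columns of fold changes and p-values for each comparison were not used.

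Each library's whole reads were recovered from its deposited log2 values, and levels across tables were set on 1 scale with size factors recomputed over the 24 libraries. Each comparison was fitted with limma 3.58.1 (R 4.3.3, empirical Bayes with a trend, Benjamini-Hochberg adjustment over all tested genes) on the deposited log2 values with their pseudocount of 1, keeping genes that reached 10 normalized reads in 3 or more libraries. The interaction and sex comparisons used the 24 libraries on the common scale, with 1 estimate of the spread per gene shared by all groups. A gene was called at an adjusted p under 0.01 with a fold change over 1.5 or under 0.66. Groups came from the labels, and errors measure the spread between mice, whose litters no source used here gives. The fits were also run on simulated reads with known fold changes. Genes varied independently there, unlike the 10 genes here, so that run does not bear on their results. Alternatives were a pseudocount of 10, no filter, trimmed mean of M-values scaling, limma-voom on the recovered reads, leaving out each library, and leaving out the libraries with renal in their names. Leaving out the libraries with over 1000 normalized reads of Cyp11a1, or over 100 of Upk3a, was chosen after the data were seen.

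The 10 genes and the lists for other cells were chosen with earlier results of these data known. The rule for named genes was to describe all 10, the 4 highest and any called gene of the other mesothelial list, and the 5 genes closest in pattern by Pearson's r. Further genes are named where a result turns on them.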

Additional observations from a re-analysis of the deposited data

Results flagged for a closer look

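The level of Gpm6a moved in opposite directions with the HF diet in the daughters of CTRL and of VDD mothers. It had a log2 fold change of 0.92 in CTRL LF vs. CTRL HF females, where every HF mouse was above every LF mouse. In the VDD LF vs. VDD HF comparison of females it had -1.14, and there every HF mouse was below every LF mouse. With 1 library left out, Gpm6a ranged from 0.71 to 1.16 in the CTRL comparison and from -1.56 to -0.46 in the VDD comparison. The gene was singled out because its groups did not overlap in either comparison. Of all tested genes, 16.9% were higher in CTRL HF and 6.06% lower in VDD HF females without overlap. The share of all genes with both was not counted. The difference between the responses was not tested apart from the mice that singled Gpm6a out. In the model over all libraries the difference of both responses was -2.09 ± 1.41 (SE), which was not called by limma. That error includes the spread of the male groups.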

How the results depend on the processing

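No paired analysis was possible because the columns carry mouse numbers and not the replicate numbers of the labels. The planned count models of edgeR and DESeq2 were not run, and limma-voom was used on the recovered reads. Each group held 3 mice, whose levels differed by up to 109-fold for 1 gene within a group, and this limits the size of difference that limma can call.

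With 1 library left out, the median log2 fold change of the 10 genes ranged from -2.47 to 0.35 in CTRL LF vs. VDD LF males, from -1.11 to 0.24 in CTRL HF vs. VDD HF males, from -0.12 to 0.55 in CTRL LF vs. CTRL HF males and from -0.59 to 2.43 for VDD LF and VDD HF males. The ranges in females were -0.30 to -0.082, -2.25 to -1.21, 0.61 to 1.14 and -1.10 to -0.16 in the same order, without a change of sign. The interaction ranged from -0.91 to 1.92 in males and from -2.001 to -1.119 in females. Between the sexes the number of the 10 genes called was 0 to 5 with 1 library left out, 1 without the filter on low values, 1 with limma-voom and 0 without the libraries high in Upk3a. The renal libraries were 1 of the 3 mice in each male group, CTRL LF female 2124 and VDD LF female 2312. No HF female had the word in its name, so it was spread unevenly over the female LF and HF comparisons. Without the renal libraries, CTRL LF vs. CTRL HF males had 1 of the 10 called and a median of -0.52, CTRL HF vs. VDD HF males had a median of -0.29 and VDD LF vs. VDD HF males one of 0.28. Without the libraries high in Cyp11a1, which left 1 CTRL HF female, the median of CTRL LF vs. CTRL HF females was 0.37. The causes of these changes were not tested.

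The number of all genes called in CTRL LF vs. CTRL HF males, 9 in the main setting, was 15 with a pseudocount of 10, 39 without the filter, 14 with trimmed mean of M-values scaling, 111 without the renal libraries and 0 to 10 with 1 library left out. For VDD LF and VDD HF males it was 12, against 47, 37 and 13 in the first 3 of these settings, 0 with limma-voom, 0 without the renal libraries and 0 to 264 with 1 library left out. In CTRL LF vs. CTRL HF females it was 0, against 13 without the filter, 3 without the libraries high in Cyp11a1 (1 CTRL HF female, assumed to vary like the CTRL LF females) and 0 to 1 with 1 library left out. In CTRL HF vs. VDD HF males it was 0 to 142 with 1 library left out. The interaction had 0 genes called, against 1 in males with a pseudocount of 10 and 3 in females without the filter. Between the sexes the number was 1338, and 179 without the libraries high in Upk3a.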
